A study of Homo sapiens with 3 samples.

Results

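The 10 genes described here are those whose products decide which transmitter a neuron makes and packs into its vesicles. They comprise 3 genes for glutamate (SLC17A6, SLC17A7 and SLC17A8), 2 for acetylcholine (CHAT and SLC18A3) and 5 for the monoamines (TH, DBH, TPH2, SLC18A1 and SLC18A2). Accessible chromatin was measured by ATAC-seq, in which a transposase cuts and tags DNA that is free of tight packing, in neurons made from KOLF2.1J, an iPSC line in wide use. The cells carried human NGN2, a proneural transcription factor that drives stem cells to neurons, and were taken on day 14 of differentiation. The 3 biological replicates belong to 1 group and were pooled by the authors into 1 list of peaks, so there is no control condition, no value per replicate and no error between replicates. Regions were assigned to a gene by position only, when a summit lay inside the RefSeq gene body or within 50 kb of its outer ends, and no measured value entered that choice. By this rule 46 of the 65234 distinct regions of the list, which holds 145092 summit entries, belonged to the 10 genes.

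Glutamate is loaded into vesicles by the transporters VGLUT1 (SLC17A7), VGLUT2 (SLC17A6) and VGLUT3 (SLC17A8). Acetylcholine is made by choline acetyltransferase (CHAT) and loaded by VAChT, whose gene SLC18A3 lies within the CHAT gene, so that the pair is known as the cholinergic gene locus. Dopamine and noradrenaline need tyrosine hydroxylase (TH) and, for noradrenaline, dopamine beta-hydroxylase (DBH), serotonin in the brain needs tryptophan hydroxylase (TPH2), and all monoamines are loaded by VMAT1 (SLC18A1) or VMAT2 (SLC18A2). Neurons induced by NGN2 are in general use as a model of excitatory, glutamatergic neurons.

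The stretches of 250 bases just upstream of the first annotated start are shown for 7 of these genes, because starts with and without an accessible region can be compared in them. They are RefSeq sequence of GRCh38.p14, read 5′ to 3′ along each gene, and all are on the plus strand except SLC17A7. Capitals mark 5 short words on either strand, namely the E-boxes CAGATG and CAGCTG, the GC box GGGCGG, the short cAMP word TGACG and the TATA word TATAAA. The first 4 sequences lie wholly inside an accessible region, and the last 3 touch none.
TPH2, chr12:71938595-71938844: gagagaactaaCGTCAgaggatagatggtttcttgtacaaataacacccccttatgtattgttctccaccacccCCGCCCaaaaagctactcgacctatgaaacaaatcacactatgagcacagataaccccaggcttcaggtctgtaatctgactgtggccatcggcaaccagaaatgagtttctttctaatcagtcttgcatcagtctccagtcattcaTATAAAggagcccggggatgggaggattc
SLC17A8, chr12:100356824-100357073: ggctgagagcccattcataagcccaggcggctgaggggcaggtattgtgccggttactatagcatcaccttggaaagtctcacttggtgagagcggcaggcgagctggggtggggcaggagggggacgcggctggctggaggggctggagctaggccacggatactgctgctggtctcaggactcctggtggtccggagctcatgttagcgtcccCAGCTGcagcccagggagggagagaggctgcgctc
SLC17A6, chr11:22338131-22338380: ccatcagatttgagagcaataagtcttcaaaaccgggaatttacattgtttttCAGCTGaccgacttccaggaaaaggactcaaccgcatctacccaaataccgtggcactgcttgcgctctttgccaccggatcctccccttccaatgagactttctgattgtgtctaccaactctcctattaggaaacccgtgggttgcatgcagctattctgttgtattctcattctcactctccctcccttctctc
SLC18A3, chr10:49610060-49610309: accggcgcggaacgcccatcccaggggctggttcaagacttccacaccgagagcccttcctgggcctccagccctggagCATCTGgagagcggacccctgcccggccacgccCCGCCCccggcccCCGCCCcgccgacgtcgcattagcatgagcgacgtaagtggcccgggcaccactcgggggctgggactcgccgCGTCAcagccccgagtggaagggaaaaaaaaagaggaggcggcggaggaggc
SLC18A2, chr10:117240864-117241113: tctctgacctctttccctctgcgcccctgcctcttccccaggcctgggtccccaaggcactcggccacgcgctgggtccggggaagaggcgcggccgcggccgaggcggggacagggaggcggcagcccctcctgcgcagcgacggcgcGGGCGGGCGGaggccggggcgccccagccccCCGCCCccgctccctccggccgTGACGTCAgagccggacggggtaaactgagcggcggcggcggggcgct
SLC17A7, chr19:49441528-49441777: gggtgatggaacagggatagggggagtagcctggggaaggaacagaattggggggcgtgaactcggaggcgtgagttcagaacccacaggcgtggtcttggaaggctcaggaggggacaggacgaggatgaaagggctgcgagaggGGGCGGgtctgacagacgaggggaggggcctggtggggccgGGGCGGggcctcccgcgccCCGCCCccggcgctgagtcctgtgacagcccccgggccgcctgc
DBH, chr9:133636113-133636362: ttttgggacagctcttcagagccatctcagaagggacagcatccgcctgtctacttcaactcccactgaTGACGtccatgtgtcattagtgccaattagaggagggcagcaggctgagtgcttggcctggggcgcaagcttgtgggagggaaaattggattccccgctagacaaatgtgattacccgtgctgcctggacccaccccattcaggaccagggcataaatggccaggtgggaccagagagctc

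Just past its start TPH2 also holds words that match both parts of an RE1 element, the element bound by the neuronal gene repressor REST. They lie from 9 to 31 bases after the start, at chr12:71938854-71938876 on the plus strand, and are shown with the parts in capitals.
TPH2 RE1 parts: TTCAGCACCagggttctGGACAG
The left part TTCAGCACC and the right part GGACAG are 8 bases apart. Of 22173 promoters of coding genes of 300 bases (250 before to 50 after the start), 15 (0.0676%) held both parts in this order on 1 strand, the right part within the 20 bases after the left, and 13 of those 15 (86.7%) had a region summit within 1 kb, against 14786 of all 22173 (66.7%). The count of 15 pools all spacings within that limit, and none is given for parts 8 bases apart. A match of letters is a description, not a bound site.

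Each entry of the list gives a fold enrichment, the authors' ratio of the tags at a summit to a local background. The number of tags behind it was recovered from the ratio and its p-value, and it is given with an exact Poisson 95% interval that covers counting error only, since PCR copies are not independent molecules. The 46 regions had a median fold enrichment of 5.04, from 2.33 to 16.7, and a median of 267.5 tags, from 104 to 1743. Over all 65234 regions the medians were 5.6-fold and 238.0 tags. Median width was 927.5 bp against 882.0 bp. Because a strong or crowded neighbourhood raises the local background, a fold enrichment and a tag count can order the same regions differently, and both are given.

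**Figure D1:**
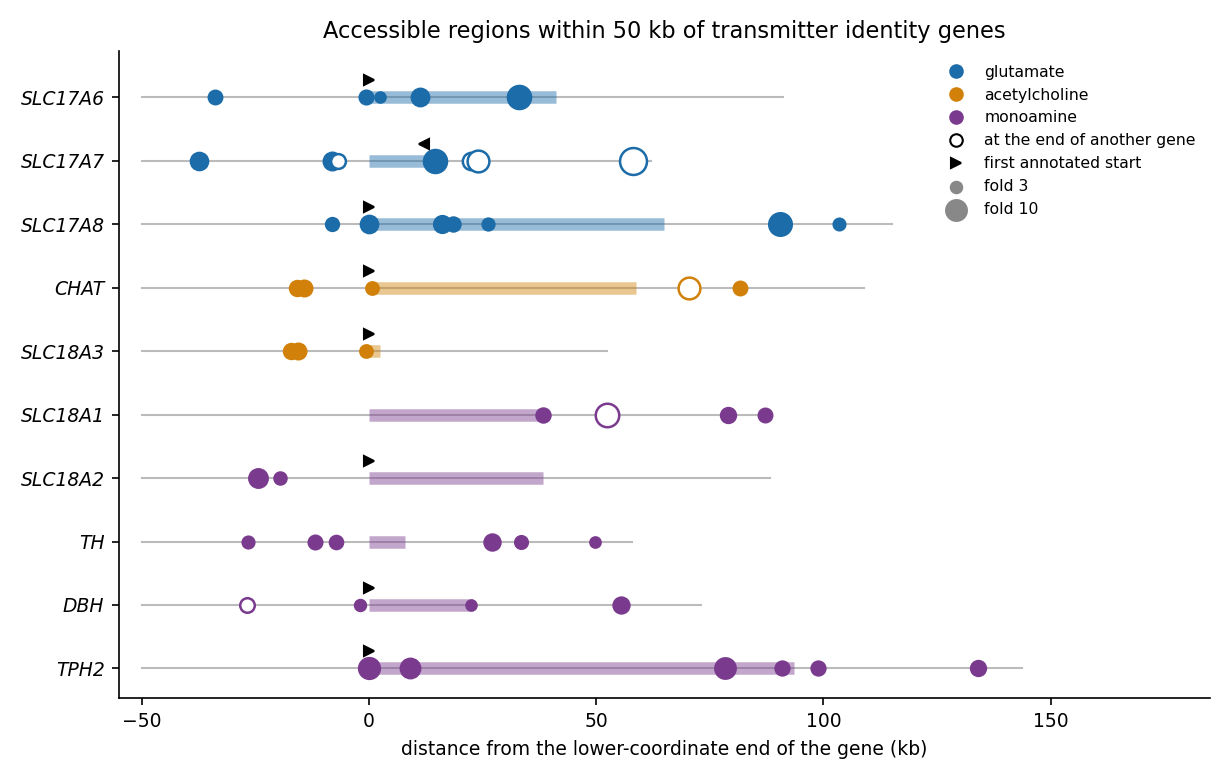
Position of every region (circle, area in proportion to fold enrichment) on the 10 genes, as the distance in kb of its strongest summit from the lower-coordinate end of the gene; thick bars are gene bodies, thin lines reach 50 kb beyond, and arrowheads are first annotated starts, drawn for the 8 genes in the promoter table. TPH2, SLC17A8 and SLC17A6 hold 3 or 4 regions in the body, while SLC17A7, SLC18A1, SLC18A2 and TH hold none.

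The glutamate transporters were not alike at their starts. SLC17A6 and SLC17A8 each had a region across the annotated start, whereas the start of SLC17A7 had none within 1 kb. Of the 15842 coding genes in the promoter table, 71.2% had a region summit within 1 kb of an annotated start, so the state of SLC17A7 is the less common one.

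SLC17A6 (gene ID 57084, chr11:22338381-22379503, 41.1 kb), for VGLUT2, had 5 regions in its window. The region at its start, chr11:22337490-22338499, peaked 625 bp upstream, on the side shared with the divergent transcript SLC17A6-DT. It was weak for a start, with a fold enrichment of 4.27 and 227 tags (95% interval 198 to 259), at percentile 10.3 by fold enrichment and 9.18 by tags among the 11332 regions at coding starts. The strongest region of the window lay inside the gene, 33.0 kb after the start and 8.14 kb before its far end. This region, chr11:22370748-22371713, had a fold enrichment of 12.3 and 481 tags (439 to 526), so its tag interval lay above that of the start. A second region in the body, chr11:22349044-22350166, 11.3 kb after the start, reached 6.94-fold with 229 tags. The third, chr11:22340636-22341330, had 2.35-fold and 139 tags, at percentile 0.699 of all regions by fold enrichment. The median of 2583 coding genes within 25% of this length was 1 region in the body, against 3 in SLC17A6.

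SLC17A8 (gene ID 246213, chr12:100357074-100422055, 65.0 kb), for VGLUT3, had 7 regions. Its start region, chr12:100356401-100357570, peaked 27 bp upstream with a fold enrichment of 6.83 and 308 tags (275 to 344). The 3 regions in the body lay 16.0, 18.5 and 26.1 kb after the start and had fold enrichments of 6.43, 4.46 and 3.19. They carried 384, 267 and 119 tags. The strongest region, chr12:100446988-100448159, lay 25.5 kb beyond the far end and at the end of no gene, with a fold enrichment of 11.7 and 614 tags (566 to 665). Both SLC17A6 and SLC17A8 thus had their highest region away from the start.

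SLC17A7 (gene ID 57030, chr19:49429401-49441527, 12.1 kb), for VGLUT1, had 7 regions in its window but none in its body and none within 1 kb of either end. The nearest, chr19:49442859-49444065, peaked 2.32 kb upstream of the start, with a fold enrichment of 12.2 and 1268 tags (1199 to 1340). It lay at the end of no annotated gene, and SLC17A7 was the nearest coding gene. Of the other 6, 4 lay at the ends of PTH2, PIH1D1, ALDH16A1 and RPL13A. The RPL13A region, 45.9 kb upstream, was the strongest in any of the 10 windows, at 16.7-fold and 1743 tags. The window of SLC17A7 is therefore dense (6.24 regions per 100 kb, percentile 87.6 of 20037 coding genes) with much of that density at the ends of neighbours.

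The acetylcholine genes share their chromatin. SLC18A3 (gene ID 6572, chr10:49610310-49612720, 2.41 kb) lies inside CHAT (gene ID 1103, chr10:49609095-49667942, 58.8 kb), and all 3 regions of SLC18A3 are also among the 5 of CHAT. A single region stood at the starts of both, chr10:49609299-49610866, with its strongest summit 649 bp after the first CHAT start and 566 bp before the SLC18A3 start. It was wide, at 1568 bp, and held 4 summits. A summit 41 bp before the SLC18A3 start had 3.43-fold enrichment and 421 tags (382 to 463), which the 422 tags of the strongest do not exceed beyond counting error. The other 2 lay 383 bp after the first CHAT start, with 352 tags, and 438 bp inside SLC18A3, with 221 tags. The position of the strongest summit between the genes is thus not resolved, and the region cannot be assigned to CHAT or to SLC18A3. Its fold enrichment was 3.49, at percentile 5.61 among regions at coding starts, but its 422 tags (383 to 464) stood at percentile 22.3, over a local background of 120.2 tags. The region covered all 300 bases of the SLC18A3 promoter window and none of those at any of the 3 CHAT starts. Relative to the other 2 CHAT starts, at 49613098 and 49614037, this strongest summit was the nearest of any region, at -3.35 and -4.29 kb.

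Upstream of the locus a pair of neighbouring regions, chr10:49592912-49593773 and chr10:49594597-49595305, lay 15.9 and 14.3 kb before the first CHAT start. They had fold enrichments of 5.11 and 5.55 and 291 and 338 tags, with overlapping intervals (259 to 326 and 303 to 376). The highest region in the CHAT window, 10.9-fold with 454 tags, lay 41 bp from an end of C10orf53. The CHAT body held no region apart from the shared one, where 2408 coding genes within 25% of its length had a median of 1 in the body.

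The monoamine genes differed among themselves. TPH2 had a region on its start, counted among the 4 in its body, whereas neither TH nor SLC18A2 had a region in its body or within 1 kb of an end. Inside the body 71.3% of the 20037 coding genes had a summit, and 6 of the 10 genes described here did, SLC18A3 by the weakest summit of the shared region alone.

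TPH2 (gene ID 121278, chr12:71938845-72032440, 93.6 kb), for the enzyme that begins serotonin synthesis in neurons, had 6 regions. The start region, chr12:71938517-71939320, peaked 62 bp after the start, a little past the RE1 parts shown above. With a fold enrichment of 9.91 it was the highest by that ratio of the 4 regions at annotated starts of these genes, at percentile 48.6 of regions at coding starts. Its 410 tags (371 to 452) stood at percentile 21.5 and overlapped the interval of the CHAT and SLC18A3 region, so that by tags the order between these 2 starts is within counting error. Regions in the body lay 9.05, 78.4 and 90.9 kb after the start, with fold enrichments of 8.65, 9.54 and 4.4 and with 491, 363 and 158 tags. Genes of like length (1904 within 25%) had a median of 2 regions in the body, and TPH2 had 4.

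TH (gene ID 7054, chr11:2163929-2171815, 7.89 kb), for the enzyme that begins catecholamine synthesis, had 6 regions, all outside the gene. The nearest summit lay 7.3 kb below its lower-coordinate end, inside the readthrough gene INS-IGF2, with 3.96-fold enrichment and 356 tags. The highest, chr11:2190160-2191415, lay 19.1 kb beyond the higher-coordinate end with 5.86-fold and 580 tags (534 to 629). The other 4 were between 2.4 and 4.22-fold. The window was dense, at 5.56 regions per 100 kb (percentile 82.7), although the gene itself was without a region.

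DBH (gene ID 1621, chr9:133636363-133659329, 22967 bp), which turns dopamine to noradrenaline, had 4 regions, with 1 above the median of all regions by fold enrichment. The summit nearest to its start lay 2.01 kb upstream, in chr9:133634077-133634762, at 2.74-fold and 141 tags (119 to 166). The region counted at an end of DBH, chr9:133658508-133659606, was at the far end, 536 bp inside, and also lay within 1 kb of the end of SARDH. At 2.33-fold and 110 tags (90 to 133) it was the lowest of the 46 by fold enrichment, at percentile 0.641 of all regions. The other 2 regions lay 26.9 kb upstream at the end of FAM163B, at 4.87-fold, and inside SARDH, at 5.77-fold.

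SLC18A2 (gene ID 6571, chr10:117241114-117279430, 38.3 kb), for VMAT2, the main monoamine loader of brain neurons, had 2 regions, the fewest of the 10 genes within 50 kb, both upstream, 24.3 and 19.5 kb from the start. Within 100 kb it had 7, as many as SLC18A3, SLC18A1, DBH and TPH2. The farther, chr10:117216312-117217579, had 7.79-fold enrichment and 531 tags (487 to 578), and the nearer 3.33-fold and 229 tags. At 1.45 regions per 100 kb the window stood at percentile 15.9 of coding genes. No region fell in the gene or after it, while 82.3% of 2592 genes of like length held one in the body.

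SLC18A1 (gene ID 6570, chr8:20144855-20183136, 38.3 kb), for VMAT1, known best from adrenal and other neuroendocrine cells, had 4 regions. One lay across its higher-coordinate end, chr8:20182959-20183734, with its summit 36 bp outside the gene, 4.47-fold enrichment and 205 tags (178 to 235). The highest, at 12.7-fold and 1448 tags, stood 82 bp from an end of ATP6V1B2, 14.2 kb away. The other 2 lay beyond ATP6V1B2 at 5.09 and 4.19-fold, so the body and lower side of SLC18A1 were without regions.

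**Figure D2:**
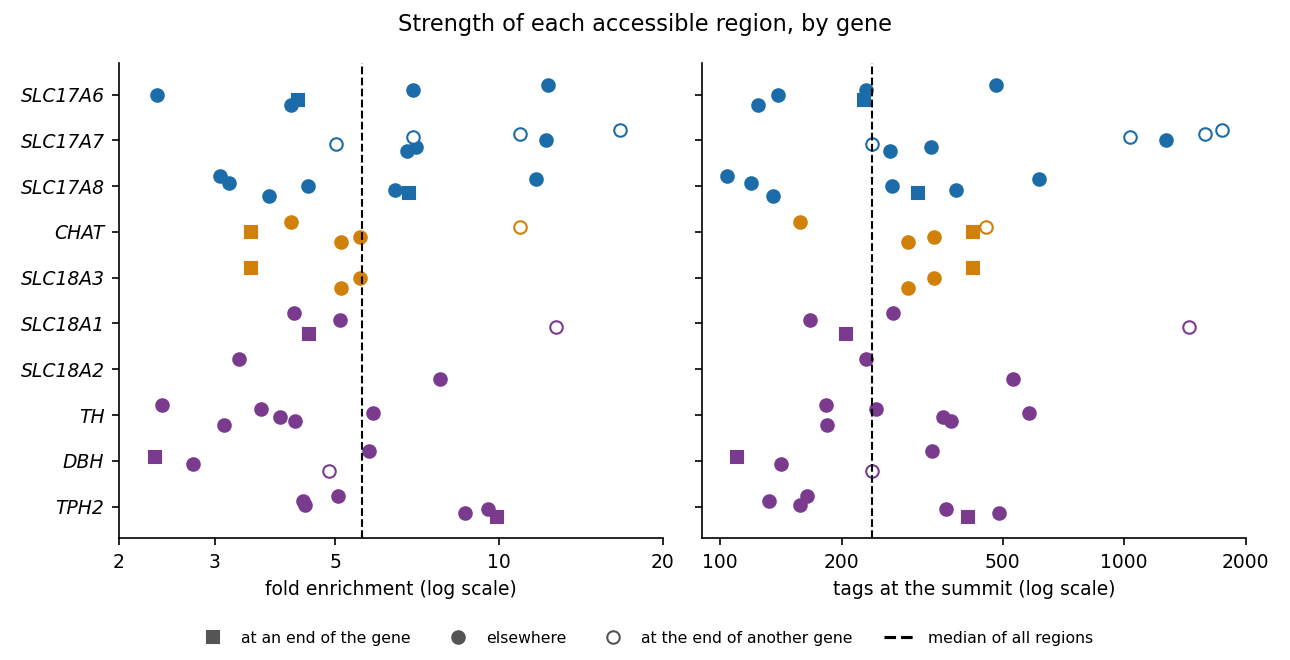
Fold enrichment (left) and tags at the strongest summit (right) of each region by gene, on log scales; squares lie within 1 kb of an end of the gene, open circles at the end of another gene, and dashed lines mark the medians of all regions, 5.6-fold and 238.0 tags. Regions above 10-fold are found at SLC17A6, SLC17A7, SLC17A8, CHAT and SLC18A1, and those of CHAT and SLC18A1, with 2 of the 3 of SLC17A7, lie at ends of other genes.

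Counted together, 7 of the 10 genes had a region within 1 kb of an outer end, against 66.7% of 20037 coding genes, a share near the background. By class these were 2 of 3 for glutamate, both for acetylcholine and 3 of 5 for the monoamines, and for DBH it was the far end. Among the 8 genes in the promoter table, 5 had a region within 1 kb of an annotated start, against 71.2% of the coding genes in that table. The count of 7 rests on the distance chosen: within 500 bp it was 3 genes (SLC17A8, SLC18A1 and TPH2), since only the strongest summit of a region counts. No share over all coding genes is given at 500 bp, so the 3 cannot be set against the 66.7%. Weaker summits of the shared region lay within 500 bp of CHAT and SLC18A3.

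Counted by class, regions were most frequent around the glutamate genes. Their windows, 418.2 kb in all, held 19 regions, or 4.54 per 100 kb, against 3.15 for the acetylcholine locus (5 regions in 158.8 kb) and 3.14 for the monoamine genes (22 in 701.0 kb). Single genes of the classes overlapped. SLC17A6 had 3.54 per 100 kb, SLC17A8 4.24 and SLC17A7 6.24, while the monoamine genes ran from 1.45 (SLC18A2) to 5.56 (TH). The median of coding genes was 3.12 per 100 kb, with quartiles at 1.91 and 4.76, so all 3 classes lay within the quartiles. Without regions at the ends of other genes, a comparison added after the data were seen, the densities were 3.35, 2.52 and 2.71. That step also removed the start region of SLC17A6, which lies at SLC17A6-DT, and the far-end region of DBH, which lies at SARDH. In gene bodies alone they were 5.07, 1.7 and 2.49 per 100 kb, from 6, 1 and 5 regions. These differences have no test, because 1 pooled list has no replicates and genes of a class are not replicates of it.

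The classes also differed in strength, and the order depended on the measure. Median fold enrichment was 6.78 for glutamate, 5.11 for acetylcholine and 4.43 for the monoamines, and 11 of 19, 1 of 5 and 7 of 22 regions were above the median of all regions. Median tags were 267.0, 338.0 and 240.0, which placed the acetylcholine locus first. Of the 5 glutamate regions at ends of other genes, 4 were in the SLC17A7 window, and their 238 to 1743 tags reached the top of the range.

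The limit of 50 kb cut through some neighbourhoods. Just inside it were a region 48.8 kb from SLC18A1 (4.19-fold) and the RPL13A region 45.9 kb from SLC17A7 (16.7-fold). Just outside were regions 53.0 kb from SLC17A6 (12.2-fold, 753 tags) and 54.7 kb from SLC17A7 (12.2-fold, 1510 tags). Around SLC18A2 the next region outside was 66.1 kb away, at 7.96-fold.

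CpG-rich starts are accessible in most cell types, so base composition is given beside the state of each start. The ratio of observed to expected CpG over the 300-base windows was highest for SLC18A2 (0.862) and SLC18A3 (0.85), followed by SLC17A7 (0.636), CHAT (0.564 at its first start), SLC17A6 (0.494), TPH2 (0.4), SLC17A8 (0.378) and DBH (0.303). The median over all coding promoters was 0.737. Across the 22173 promoters the share with a region summit within 1 kb rose from 12.3% (367 of 2988) at a ratio below 0.2 to 95.3% (2296 of 2409) at 1.0 and above. SLC18A2 had no region within 1 kb, while 92.2% of the promoters with a ratio from 0.8 to 1.0 had one. For SLC17A7, also without one, the share was 83.7% at ratios from 0.6 to 0.8. SLC17A8 went the other way, with a region on its start where 25.7% of promoters of its ratio, from 0.2 to 0.4, had one.

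**Figure D3:**
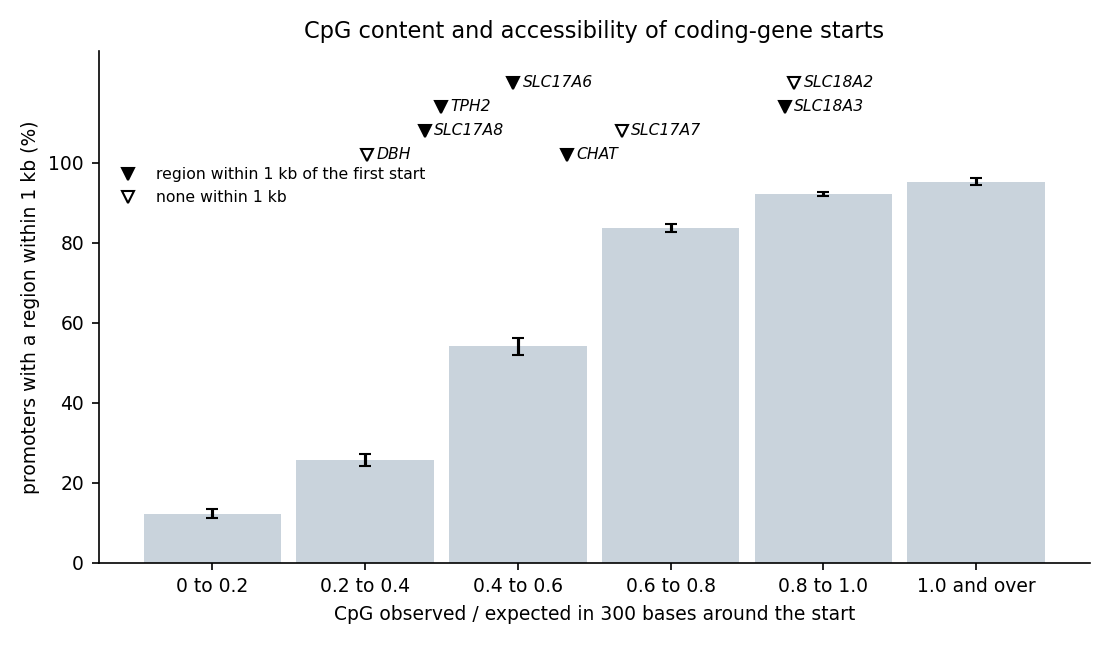
Share of coding-gene promoters with a region summit within 1 kb of the start (bars, %, Wilson 95% intervals) by the ratio of observed to expected CpG; triangles above place the first start of 8 transmitter identity genes by their own ratio, filled where a region lies within 1 kb. SLC18A2 and SLC17A7 are without a region in classes where 92.2% and 83.7% of promoters have one.

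The short words were spread unevenly over the starts. CAGCTG was present in the windows of SLC17A6 (once) and SLC17A8 (at 2 places) and of none of the other 6 genes with a window, and 18.0% of all coding promoters hold it. CAGATG was found at the first CHAT start and at SLC18A3, against 12.2% of promoters. SLC18A2 alone held the full cAMP element TGACGTCA, 48 to 41 bases before its start, which 2.26% of promoters hold. The shorter TGACG, present in 27.9%, was also found for TPH2, DBH, SLC18A3 and the first CHAT start. TATAAA was found only for TPH2, 29 to 24 bases before the start, against 9.47% of all promoters, and GGGCGG, in 56.3% of them, was absent from SLC17A6 and SLC17A8. The homeodomain word TAATTA, in 3.4% of promoters, was in none of them. All words were searched on both strands, TGACGTCA contains TGACG, and overlapping GGGCGG words in SLC18A2 were counted apart.

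Genes that make, recycle or break down the same transmitters were examined as lists of other pathway members. The acetylcholine list also holds receptor genes, namely CHRNA3, CHRNA5, CHRNA7 and CHRNB4, and RIC3, which acts on such receptors. All of these but CHRNB4 are counted below as having an accessible end. For glutamate 10 of 12 had an accessible end, among them the aminotransferase genes GOT1 at 14.3-fold and GOT2 at 11.8-fold. The 2 without one were SLC1A2 and SLC1A3, the uptake transporters best known from astrocytes. Their windows still held 11 and 9 regions, with 8 and 3 of these in the body. All 10 genes of the list that are in the promoter table had a region within 1 kb of an annotated start, against 71.2% of coding genes there. For acetylcholine 10 of 12 genes had an accessible end as well. SLC5A7, the choline transporter of cholinergic terminals, had only 1 region in its window, at its end, with 3.35-fold enrichment and 108 tags, while CHKA, a choline kinase of general metabolism, reached 13.3-fold and BCHE, a cholinesterase, 13.0-fold. COLQ and CHRNB4 had no region at an end.

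For the monoamines 10 of 16 pathway genes had an accessible end. Those with one included MAOA at 16.4-fold, a monoamine oxidase, and the tetrahydrobiopterin enzymes PTS at 15.6-fold and GCH1 at 10.2-fold. The reuptake transporters SLC6A2 for noradrenaline, SLC6A3 for dopamine and SLC6A4 for serotonin all lacked one, as did DDC, the decarboxylase shared by dopamine and serotonin synthesis, and MAOB, a monoamine oxidase. Windows of the 3 reuptake genes held 2, 3 and 1 regions. Of the 6 GABA and glycine identity genes 4 had an accessible end, and the ratios there were all below the median of all regions, from 2.48-fold at SLC32A1, the vesicular GABA transporter, to 5.08-fold at GAD2. The glycine transporters SLC6A5 and SLC6A9 had none. The share over all coding genes, 66.7%, lies between that of the monoamine list and those of the glutamate and acetylcholine lists. The GABA and glycine list had the same share, 66.7%. At annotated starts, among genes in the promoter table, the acetylcholine list had 8 of 9 and the monoamine list 7 of 11. The GABA and glycine list had 2 of 5 by starts, against 71.2% of coding genes.

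Transcription factors known from the specification of these classes were counted in the same way. An accessible end was found for 6 of 10 glutamatergic factors, 3 of 8 cholinergic factors and 10 of 18 monoaminergic factors, with LMX1B in 2 of these lists. The share over all coding genes was 66.7%. At annotated starts, among factors in the promoter table, the counts were 5 of 10, 4 of 7 and 9 of 12, against 71.2%. A factor without an accessible end can thus hold a region at an annotated start. POU4F1, of sensory neurons, had the highest ratio of the glutamatergic factors at 9.88-fold, and NEUROD6 the fewest regions, 1 with none at an end. ISL1 (11.3-fold, 890 tags) and MNX1 (8.11-fold) of motor neurons were among the cholinergic factors with an accessible end, and LHX3 and LHX8 among those without. EN2 had the highest ratio of the monoaminergic factors, at 10.3-fold with 1591 tags. NR4A2 (7.24-fold), EN1 (6.71-fold), PITX3 (5.65-fold) and LMX1A (2.85-fold) were also among the 10 with an accessible end. FEV, the factor of serotonin neurons, had an end region at 8.77-fold with 543 tags. GATA2 and GATA3, of the same lineage, had none at an end. FOXA2 had no region in its window, and PHOX2A, of noradrenergic neurons, had 2, none at an end. Tags at NEUROG2 (8.67-fold, 1175 tags) may come from the introduced NGN2 as well as from the gene itself, which the list cannot tell apart.

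**Figure D4:**
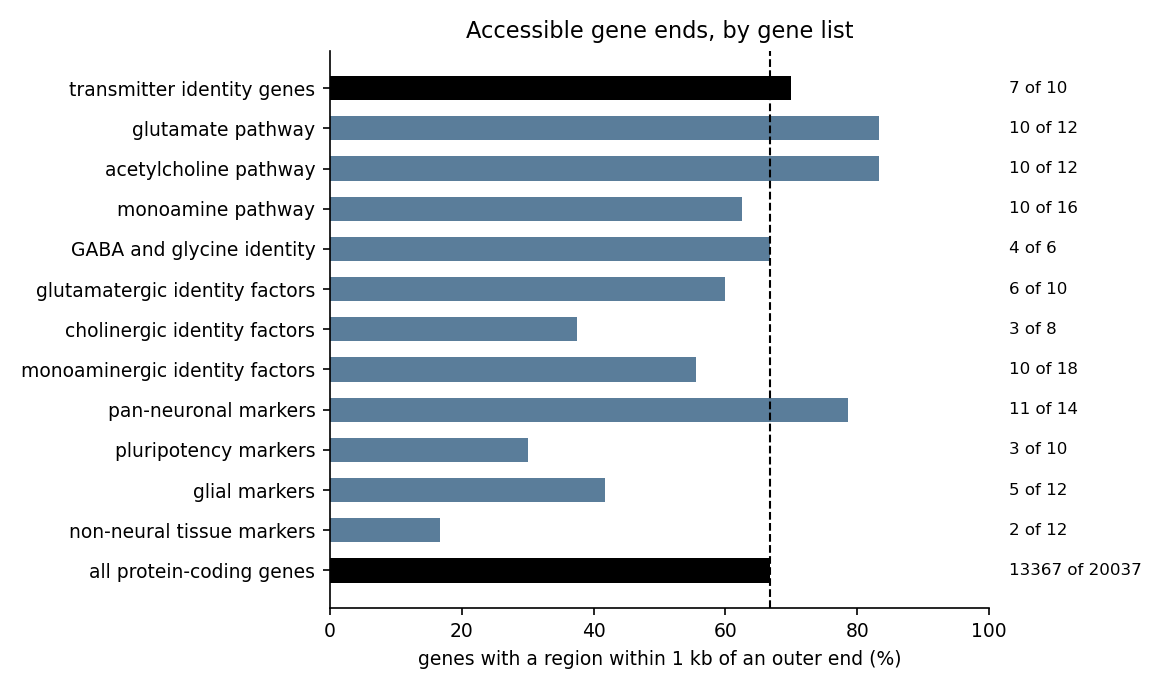
Share of genes with a region summit within 1 kb of an outer end (bars, %) for the 10 transmitter identity genes, for each gene list and for all coding genes (dashed line, 66.7%), with the counts at the right. Pathway lists range from 10 of 16 to 10 of 12, and the lists of pluripotency, glial and non-neural markers from 2 of 12 to 5 of 12.

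The labelled cell type was checked on marker lists. Of 14 pan-neuronal markers 11 had an accessible end, against 3 of 10 pluripotency markers, 5 of 12 glial markers and 2 of 12 non-neural tissue markers. The share over all coding genes was 66.7%. At annotated starts, among genes in the promoter table, the neuronal and glial lists were closer, at 8 of 9 and 5 of 6. By starts the pluripotency list had 4 of 8 and the non-neural list 1 of 5, against 71.2% of coding genes. The neuronal markers without an accessible end were TUBB3, RBFOX3 and ELAVL4. POU5F1 and NANOG had none, while SOX2, LIN28A and DNMT3B of the pluripotency list had one. GFAP, SOX10 and MBP had none, while the glial markers AQP4, S100B, ALDH1L1, OLIG1 and OLIG2 did, from 2.83 to 8.87-fold, and SLC1A3 is in both the glial and the glutamate list. The part of other cells in the values of the transmitter genes was not tested. In pooled bulk chromatin, a region open in few cells and one weakly open in many cannot be told apart, so none of the values above gives the share of cells that use a transmitter, and accessibility is not expression.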

How the data were processed

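ATAC-seq was analysed for 3 samples of 1 group, each made from 100000 cells per the labels' protocols. The genome build is hg38, per the submitters' processing notes; the aligner, peak caller and filters are not given in the sources used here. The deposited list is named an IDR optimal peak list in the labels and is shared by all 3 samples. That name refers to peaks kept for reproducibility, but what was compared to judge it is not given in the sources used here. Its deposited fold enrichment is a linear ratio per summit, its deposited −log10 p ranges from 5.92 to 2945 and −log10 q from 4.28 to 2939, and the authors' score runs from 540 to 1000 with a scale not given.

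Entries with equal bounds were merged, and each region took its values from the entry of smallest p-value. A tag count was recovered as the whole number whose Poisson upper tail gives the p-value, with 1 added to count and background in the ratio; the largest miss was 0.00079 units of −log10 p, and the next whole number missed by a median of 0.266. Of backgrounds above the floor of 29.2 tags, 99.8% lay within 0.0005 of a multiple of 0.015 tags, what 1 tag of 150 bases adds to a mean over 10 kb; the caller's own settings are not known. The depth of each sample is unknown. The recovery was tested on simulated data.

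Positions count from 1. Gene bodies came from RefSeq for GRCh38.p14, and starts and sequences from its promoter table, which matched 8 of the 10 genes with 10 starts. A region was at an end or start when its strongest summit lay within 1 kb. The text names all 10 genes, their regions at ends, in bodies and of highest fold enrichment, and up to 4 examples of each list, chosen by the strength of the region at an end or by few regions; further genes of a list, the remaining window regions and neighbouring genes were named after their values were seen. Some genes counted in the lists are not reported here by name. Genes and lists were chosen with earlier results of these data known, and no test was made, since the list has no replicates. Alternatives changed the window, the score (at least 830), the fold enrichment, the summit rule, the merging and the distance to ends. Python 3.11.15, numpy 2.4.6, scipy 1.17.1, pandas 2.3.3 and matplotlib 3.10.9 were used.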

Additional observations from a re-analysis of the deposited data

How the results depend on the processing

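The 46 regions became 78 with a window of 100 kb, 19 above the median fold enrichment and 99 as summit entries. Above the median fold enrichment, regions per 100 kb were 2.63 for glutamate, 0.63 for acetylcholine and 0.999 for monoamine genes, and as summit entries 9.09, 6.92 and 7.13. These shifts follow from how many regions or entries each setting admits. The glutamate density was the highest of the 3 classes in all 7 alternative settings, which include regions at the end of no other gene; the order of the other 2 classes was not fixed. The 7 genes with an accessible end became 3 within 500 bp and 2 above the median fold enrichment, with no share over all coding genes given at either setting. The other 23 of 34 recomputed values of these results stayed within 1.5 times the value reported. Of 20 recomputed region counts of single genes, 11 moved by more: at 20 kb TH fell to 3, SLC18A1 and DBH to 2 each and SLC18A2 to 1, and at 100 kb SLC17A7 rose to 16, SLC17A6 to 9, CHAT to 8, and SLC18A3, SLC18A1, SLC18A2 and DBH to 7 each. The region of highest fold enrichment was also that of most tags for 8 of the 10 genes, all but SLC18A3 and TPH2. No replicate could be left out and no paired analysis was possible because the list holds no value per sample. The fewest tags at any summit of the list are 58; the depth is unknown, so a gene without a region is one with none in this list, not one shown to be closed.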
